A study of Mus musculus with 9 samples.

Results

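The amino acid transporters of the kidney proximal tubule were followed through 10 transcripts, Slc6a18, Slc6a19, Slc6a20b, Slc7a7, Slc7a8, Slc7a9, Slc7a12, Slc7a13, Slc3a1 and Slc1a1, taken by symbol from a table of 13081 genes. Wild-type mice gave 4 kidney libraries at 3 months of age (young) and 5 at 16 months (old), and the labels name no mutation and no drug for either age. The mice were of the C57BL/6 background, and the labels used here give no sex. RNA was reverse transcribed from the poly(A) tail so that reads fall at transcript ends, and the values are normalised counts, which the authors made by dividing each gene's reads by a size factor for the library. Young libraries held 5093029 to 6355095 reads, and old ones 4486406 to 5794960. The titles of the libraries carry 2 name prefixes that split exactly by age, so what follows the prefix and what follows age cannot be told apart. No source used here ties each library to a separate mouse, so the p-values measure the spread between these libraries.

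The proximal tubule takes back nearly all the amino acids that the glomerulus filters. Carriers in the brush border, the microvillar membrane facing the urine, bring amino acids into the cell with sodium or in exchange for other amino acids. Carriers in the basolateral membrane, facing the blood, let them out again. Several of these carriers reach the membrane only with a partner. The light chains Slc7a7, Slc7a8, Slc7a9 and Slc7a13 pair with a heavy chain, either Slc3a1 or Slc3a2. The neutral amino acid carriers of the Slc6 family need collectrin, the product of Cltrn. Loss of SLC3A1 or SLC7A9 in people causes cystinuria, loss of SLC6A19 causes Hartnup disorder, and loss of SLC7A7 causes lysinuric protein intolerance.

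The 10 transcripts moved in both directions with age. Of these, 6 were lower in old kidneys (Slc6a20b, Slc7a8, Slc7a13, Slc3a1, Slc6a19 and Slc7a9), 3 were higher (Slc6a18, Slc1a1 and Slc7a12) and 1, Slc7a7, did not pass the test. A transcript was called when its adjusted p from limma was under 0.05. Such calls were frequent in these libraries. Of the 12667 genes tested, 59.7% were called, 29.2% as higher and 30.5% as lower in old kidneys, so that 9 called of 10 and 6 lower of 10 stand against a background that is itself high. This split moved with the scaling: with mitochondrial genes left out, 4486 genes were called higher and 3178 lower of 12684 tested, and 5 of the 10 transcripts were called lower and 3 higher. The values of the ages did not overlap for 8 of the 10 transcripts, against 49.0% of all genes tested. The median log2 fold change was -0.53 over the 10 transcripts and -0.0027 over all genes, whose median size of change was 0.56. A total of 9 transcripts would also pass the filter on low values in the young libraries alone, while Slc7a12 passed through the old libraries, where it is higher.

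**Figure D1:**
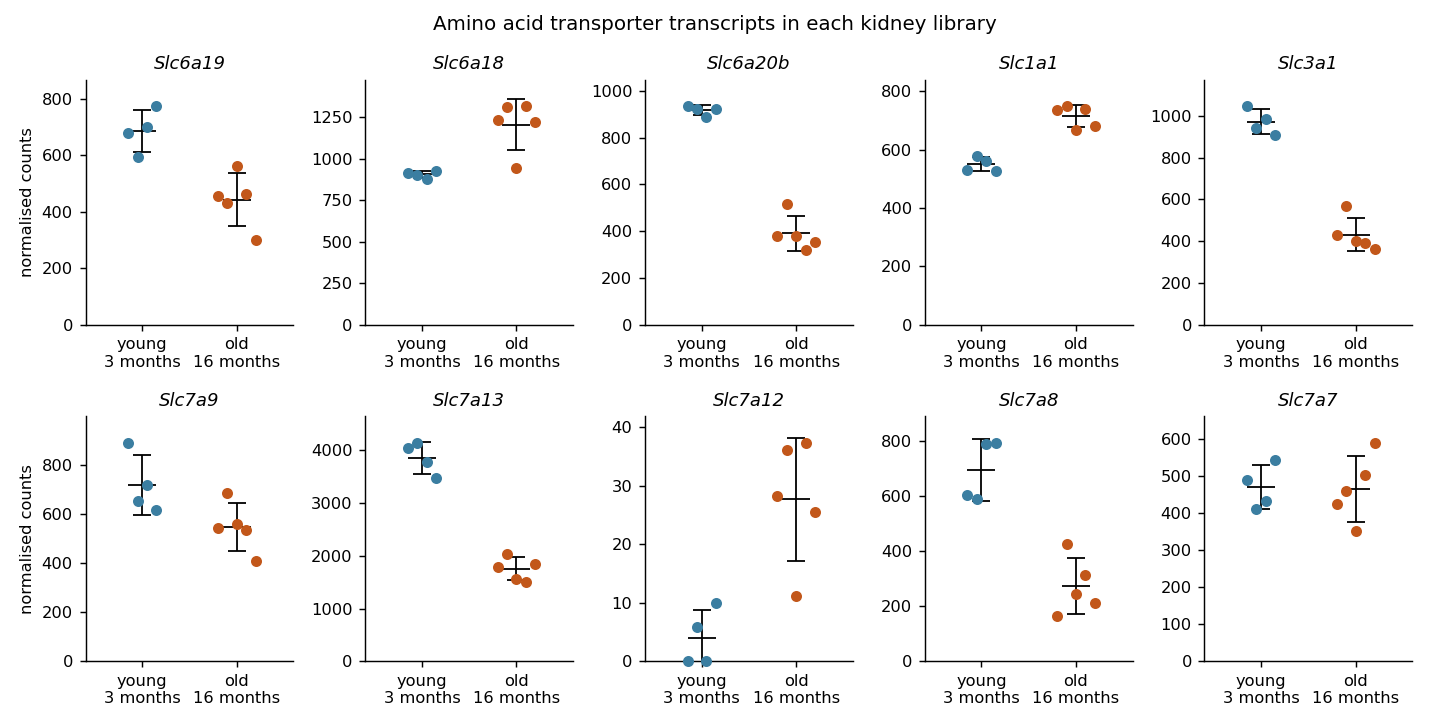
Normalised counts (y axis, linear, from 0, a scale of its own in each panel) of the 10 amino acid transporter transcripts in each library, by age (x axis). Each point is 1 library (young n = 4, old n = 5), and the bars show the mean and SD. The ages are apart in 8 panels and overlap for Slc7a9 and Slc7a7.

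Promoters are shown for the 5 transcripts that were called and that have 1 transcription start in RefSeq, since 4 of them fell and 1 rose. Of the 10 genes, 7 matched an entry, and Slc6a18, Slc7a12 and Slc7a13 did not. Each sequence is the 250 bases before the start on the gene's own strand, 5′ to 3′, from RefSeq on GRCm38.p6, with motif matches in capitals.
Slc3a1, chr17:85028097-85028346, plus strand: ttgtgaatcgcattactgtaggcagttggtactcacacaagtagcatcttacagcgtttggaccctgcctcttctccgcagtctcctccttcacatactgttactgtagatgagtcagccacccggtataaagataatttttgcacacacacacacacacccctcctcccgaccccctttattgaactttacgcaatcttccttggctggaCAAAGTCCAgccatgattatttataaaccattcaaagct
Slc6a19, chr13:73692637-73692886, minus strand: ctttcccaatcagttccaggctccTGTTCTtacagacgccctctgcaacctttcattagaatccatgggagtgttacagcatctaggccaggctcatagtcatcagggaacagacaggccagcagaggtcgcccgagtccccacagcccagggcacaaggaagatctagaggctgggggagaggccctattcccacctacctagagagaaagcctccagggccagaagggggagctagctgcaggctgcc
Slc6a20b, chr9:123632539-123632788, minus strand: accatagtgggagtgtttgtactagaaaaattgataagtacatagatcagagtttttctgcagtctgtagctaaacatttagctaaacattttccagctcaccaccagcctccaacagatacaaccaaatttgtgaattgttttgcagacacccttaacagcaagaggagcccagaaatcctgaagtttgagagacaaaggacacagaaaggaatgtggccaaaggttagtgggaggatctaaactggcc
Slc7a8, chr14:54781887-54782136, minus strand: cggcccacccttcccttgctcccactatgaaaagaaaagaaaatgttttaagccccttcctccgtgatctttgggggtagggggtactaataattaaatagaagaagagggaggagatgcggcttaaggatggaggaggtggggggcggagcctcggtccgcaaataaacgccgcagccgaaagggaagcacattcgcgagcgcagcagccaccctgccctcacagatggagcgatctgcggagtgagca
Slc1a1, chr19:28834885-28835134, plus strand: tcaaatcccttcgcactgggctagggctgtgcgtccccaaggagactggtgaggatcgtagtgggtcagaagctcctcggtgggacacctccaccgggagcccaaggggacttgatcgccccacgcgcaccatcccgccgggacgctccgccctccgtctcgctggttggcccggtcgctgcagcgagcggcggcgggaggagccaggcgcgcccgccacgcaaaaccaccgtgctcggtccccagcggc

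Motifs were searched on both strands as fixed letters, and neither of those given here overlaps the other. They were CAAAGTCCA for HNF4, a factor that keeps up proximal tubule expression, and AGAACA for a half-site of the androgen receptor. The capitals in the Slc3a1 promoter are the HNF4 letters, 39 to 31 bases before the start, which 0.387% of 32536 promoters of the same length hold. Of the 7 genes with an entry, Slc3a1 is the only 1 that holds them. Those in the Slc6a19 promoter are the androgen receptor half-site on the other strand (TGTTCT), 226 to 221 bases before the start, held by 16.0% of promoters. Of the 7 genes with an entry, 2 hold this half-site. The other is Slc7a7, which was not called. Of the transcripts called lower, the Slc6a20b window has 0 CG pairs, the Slc6a19 window 3, the 2 Slc7a9 windows 4 and 6, the Slc3a1 window 6 and the Slc7a8 window 14, and Slc7a13 was not matched. The window of Slc1a1, which rose, has 27, and the median over all promoters is 6 with quartiles of 2 and 16. These matches and counts describe the windows only.

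The sodium-coupled carriers of the brush border moved in opposite directions. Slc6a19 (B0AT1) is the main carrier of neutral amino acids in the early proximal tubule. It was at 678, 593, 702 and 775 normalised counts in the 4 young libraries and 457, 429.9, 561, 464 and 301 in the 5 old libraries. All old libraries were below all young ones, with old replicate 5 lowest and old replicate 3 nearest to young. The mean fell from 687 ± 75.1 (SD, n = 4) to 443 ± 93.2 (SD, n = 5), a log2 fold change of -0.65 (SE 0.14, adjusted p = 0.000511).

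Slc6a18 (B0AT3), the neighbouring gene on chromosome 13, encodes a related neutral amino acid carrier of later parts of the tubule. It was at 916, 902, 878 and 924 normalised counts in young and 1229, 1312, 944, 1316 and 1217 in old libraries. The young libraries lay close together and the old ones above them, with old replicate 3 only just above the highest young library. Slc6a18 rose 1.33-fold, a log2 fold change of 0.40 (SE 0.10, adjusted p = 0.00221). In the plot by library, this rise beside the fall of Slc6a19 sets the 2 neighbours apart.

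Slc6a20b is 1 of 2 adjacent mouse copies, on chromosome 9, of the gene for an imino acid carrier family that handles proline. Its values were 935, 922, 888 and 923 normalised counts in young and 378, 517, 381, 321 and 355 in old libraries. The groups were far apart, and old replicate 2 was the highest of the old libraries. The mean was 2.35-fold lower at 16 months (log2 fold change -1.25, SE 0.12, adjusted p = 4.21e-08). Its neighbour Slc6a20a had far fewer reads and is outside the rule for named genes. It was named after its values were seen, at 50.8, 63.2, 56.9 and 70.6 normalised counts in young and 17.7, 19.7, 17.2, 26.1 and 23.3 in old libraries (log2 fold change -1.50, SE 0.21, adjusted p = 6.77e-06).

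Slc1a1 (EAAT3) takes up glutamate and aspartate, and its loss in people causes dicarboxylic aminoaciduria. It was at 531, 577, 562 and 528 normalised counts in young and 736, 749, 667, 741 and 682 in old libraries. Every old library exceeded every young one, and both groups were narrow. Slc1a1 rose from 549 ± 24.1 (SD, n = 4) to 715 ± 37.5 (SD, n = 5), a log2 fold change of 0.38 (SE 0.09, adjusted p = 0.00116).

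The cystine carriers of the brush border were lower in old kidneys. Slc3a1 (rBAT) is the heavy chain that brings its light chains to the membrane. Its values were 1047, 942, 986 and 908 normalised counts in young and 431, 569, 402, 391 and 364 in old libraries. Old replicate 2 was the highest of the old libraries and still well below the lowest young one. Slc3a1 fell 2.25-fold, from 971 ± 60.3 (SD, n = 4) to 431 ± 80.6 (SD, n = 5) (log2 fold change -1.18, SE 0.12, adjusted p = 8.06e-08).

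Slc7a13 (AGT1) is a light chain of Slc3a1 in the last segment of the proximal tubule and carries aspartate, glutamate and cystine. It was at 4034, 4143, 3781 and 3467 normalised counts in young and 1795, 2042, 1568, 1505 and 1847 in old libraries. The old libraries lay in a narrow band about 2.2-fold below the young ones (log2 fold change -1.14, SE 0.10, adjusted p = 2.38e-08). Within the last 500 bases of its longest transcript, 2.2% of its 50-base stretches occur in another gene. This share was 2.9% for Slc6a18 and 0 for the other 8 transcripts.

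Slc7a9, the light chain that forms the main cystine and dibasic amino acid exchanger with Slc3a1, had a smaller fold change. It was at 890.2, 652, 719 and 616 normalised counts in young and 543, 684, 558, 536 and 407 in old libraries. Old replicate 2 stood above 2 of the young libraries, so the ages overlapped. The mean fell from 719 ± 122 (SD, n = 4) to 546 ± 98 (SD, n = 5), a log2 fold change of -0.40 (SE 0.13, adjusted p = 0.0142). This call was lost without young replicate 1, its highest library (log2 fold change -0.29, adjusted p = 0.078), with mitochondrial genes left out of the scaling (-0.26, adjusted p = 0.106) and with a transcript length trend removed (-0.16, adjusted p = 0.285), and over all alternatives its adjusted p ran from 0.00261 to 0.285.

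The basolateral light chains, which pair with Slc3a2, parted. Slc7a8 (LAT2) exchanges neutral amino acids. Its values were 604, 588, 790.3 and 794 normalised counts in young and 166, 427, 245, 314 and 213 in old libraries. Old replicate 2 was highest and old replicate 1 lowest among the old libraries, a wider spread than in most of the 10 transcripts, and no old library reached the young range. Slc7a8 fell 2.54-fold, from 694 ± 113 (SD, n = 4) to 273 ± 101 (SD, n = 5) (log2 fold change -1.40, SE 0.19, adjusted p = 5.48e-06).

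Slc7a7 exports dibasic amino acids to the blood. It was at 489.7, 412, 431 and 543 normalised counts in young and 423, 458, 353, 503 and 589.8 in old libraries. The old libraries covered the whole young range and went beyond it at both ends. The log2 fold change was -0.02 (SE 0.13, adjusted p = 0.887), and its sign turned under 7 of 23 alternatives, between -0.11 and 0.19, so no direction can be given.

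Slc7a12 (asc-2) carries small neutral amino acids and had few reads. It was at 0, 5.83, 0 and 9.96 normalised counts in young and 28.3, 36.1, 11.2, 37.3 and 25.5 in old libraries, from 0, 6, 0 and 11 reads and from 24, 33, 11, 40 and 24 reads. The ages were separated by a small gap, between young replicate 4 and old replicate 3. The log2 fold change was 3.18 (SE 0.62, adjusted p = 0.000241). Its size depends on the pseudocount added before the logarithm, from 1.96 with 5 to 4.87 with 0.1, while the ratio of the means was 7.01. Fits to the read counts gave lower log2 fold changes, 2.79 with edgeR and 2.82 with DESeq2. The floor of 3 reads, which covers counting error only, was 2.46 and 2.94 normalised counts in the 2 young libraries at 0.

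**Figure D2:**
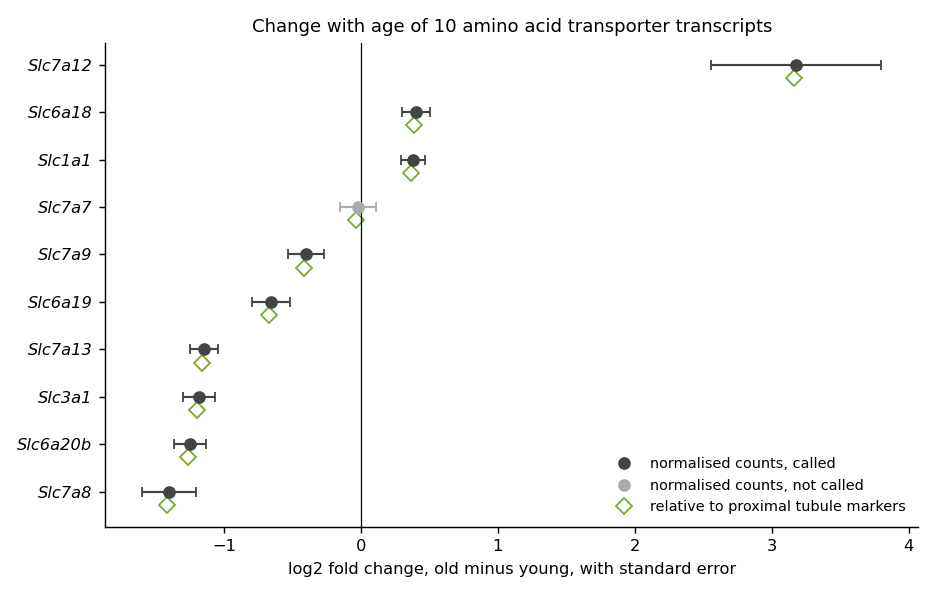
Log2 fold change, old minus young (x axis), of the 10 transcripts (y axis), with the standard error of limma as bars. Filled circles use normalised counts (dark when called, grey when not) and open diamonds the values relative to proximal tubule markers. Slc7a8 is at -1.40, Slc7a7 near 0 and Slc7a12 at 3.18. The diamonds lie close to the circles because the marker mean shifts all of them alike.

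To ask whether the transporters moved with the rest of their segment, each was set against 15 proximal tubule markers in the same library. The markers themselves did not move as 1 group: 5 were called higher, 7 lower and 3 not called. Slc22a6, the organic anion uptake carrier, had the lowest log2 fold change (-1.26) and Slc5a12, a lactate carrier, the highest (1.63). Hnf4a, which encodes the factor whose letters were searched above, is outside the rule for named genes. It was at -0.93 (adjusted p = 2.39e-07), and its part in the transporter results was not tested. The mean log2 level of the markers was 11.14 to 11.25 in young and 11.04 to 11.31 in old libraries, with old replicate 3 lowest.

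The mean of the markers is subtracted from every gene of a library, so all fold changes shift alike (Slc3a1 from -1.18 to -1.20). The directions therefore repeat the first fit wherever a change exceeds that shift. Since the markers diverged, their mean cannot show whether the transporters moved with their segment. Relative to that mean, 9 of the 10 transcripts were called, in the directions above, against 57.9% of all genes tested. Relative levels did not overlap between ages for 7 of the 10, against 47.3% of all genes tested. Slc3a1 was at -1.38 to -1.21 (log2, transporter minus marker mean) in young and -2.75 to -2.06 in old libraries. Slc6a18 was at -1.41 to -1.32 in young and -1.15 to -0.86 in old libraries. For Slc6a19 the ages then met, with -1.93 to -1.61 in young and -3.02 to -1.90 in old libraries. The choice of reference changed some calls. With the markers summed in place of averaged, Slc6a18 was at 0.20 (adjusted p = 0.0807) and Slc1a1 at 0.18 (adjusted p = 0.154), while Slc7a12 stayed called at 2.98 (adjusted p = 0.00057). With 4 reference markers, Slc7a9 was at -0.32 (adjusted p = 0.0702). Of the calls over all genes, 35.5% were higher with the summed reference and 54.6% with the 4 markers, against 47.8% with the mean of 15. In whole-kidney RNA, fewer cells of a type and less RNA per cell cannot be told apart.

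The partners of the carriers did not follow them as a group. Cltrn, the collectrin needed by Slc6a19 and Slc6a18, was at 3992, 4445, 3908 and 3777 normalised counts in young and 4058, 3878, 3419, 4790.0 and 4886 in old libraries (log2 fold change 0.05, SE 0.11, adjusted p = 0.706), and its sign turned under 3 of 23 alternatives. With a transcript length trend removed, Cltrn was called higher in old kidneys (0.38, adjusted p = 0.00617). The ages overlapped, with the lowest and the 2 highest values all in old kidneys.

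Slc3a2, the heavy chain of Slc7a7 and Slc7a8, was at 996, 936, 1028 and 1063 normalised counts in young and 753, 1130.0, 798, 649 and 516 in old libraries. Old replicate 2 was above all young libraries and the other 4 old libraries below them. Its call (log2 fold change -0.43, SE 0.15, adjusted p = 0.021) was lost under 6 of 23 alternatives, with adjusted p up to 0.126, among them leaving out young replicate 4 (adjusted p = 0.0535), old replicate 4 (0.0536) or old replicate 5 (0.0575).

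Anpep encodes aminopeptidase N, a peptidase of the brush border that associates with Slc6a19. Anpep fell 3.75-fold, from 342 ± 73.6 (SD, n = 4) to 91.1 ± 19.4 (SD, n = 5) (log2 fold change -1.90, SE 0.17, adjusted p = 1.91e-08). The ages did not overlap.

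Balance between partners was compared as the log2 ratio of 2 genes within a library, a measure that the size factor hardly touches. The 8 pairs are known complexes or neighbours, chosen after the change of each gene had been seen, so the ratios are a description with no test. The ratio of Slc7a9 to its heavy chain Slc3a1 went from -0.45 ± 0.15 at 3 months (SD, n = 4) to 0.34 ± 0.13 at 16 months (SD, n = 5), a difference of 0.78. The ages did not overlap, with a log2 ratio below 0 in every young library and above 0 in every old one. The ratio of Slc7a13 to Slc3a1 went from 1.99 ± 0.10 at 3 months (SD, n = 4) to 2.03 ± 0.19 at 16 months (SD, n = 5), a difference of 0.04. The ages overlapped, and the difference changed sign without old replicate 5 (-0.04).

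On the basolateral side, the ratio of Slc7a8 to Slc3a2 went from -0.55 ± 0.17 at 3 months (SD, n = 4) to -1.52 ± 0.44 at 16 months (SD, n = 5), a difference of -0.97, and the ages did not overlap. The ratio of Slc7a7 to Slc3a2 went from -1.10 ± 0.13 at 3 months (SD, n = 4) to -0.70 ± 0.61 at 16 months (SD, n = 5), a difference of 0.41. The spread of the old libraries exceeded that difference, which was 0.19 without old replicate 5.

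Among the neutral amino acid carriers, the ratio of Slc6a18 to Slc6a19 went from 0.40 ± 0.15 at 3 months (SD, n = 4) to 1.46 ± 0.46 at 16 months (SD, n = 5), a difference of 1.06. Its ages did not overlap, which follows from the rise of Slc6a18 and the fall of Slc6a19 given above. Against Cltrn, Slc6a18 went from -2.15 ± 0.11 at 3 months (SD, n = 4) to -1.80 ± 0.17 at 16 months (SD, n = 5), a difference of 0.35, and the ages did not overlap. Slc6a19 went from -2.56 ± 0.26 at 3 months (SD, n = 4) to -3.26 ± 0.51 at 16 months (SD, n = 5), a difference of -0.71, and its ages overlapped. The ratio of Slc6a20b to Slc6a20a went from 3.91 ± 0.20 at 3 months (SD, n = 4) to 4.16 ± 0.43 at 16 months (SD, n = 5), a difference of 0.25, less than the spread of the old libraries, and the ages overlapped. That difference was 0.13 without old replicate 2 and 0.40 without old replicate 4.

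**Figure D3:**
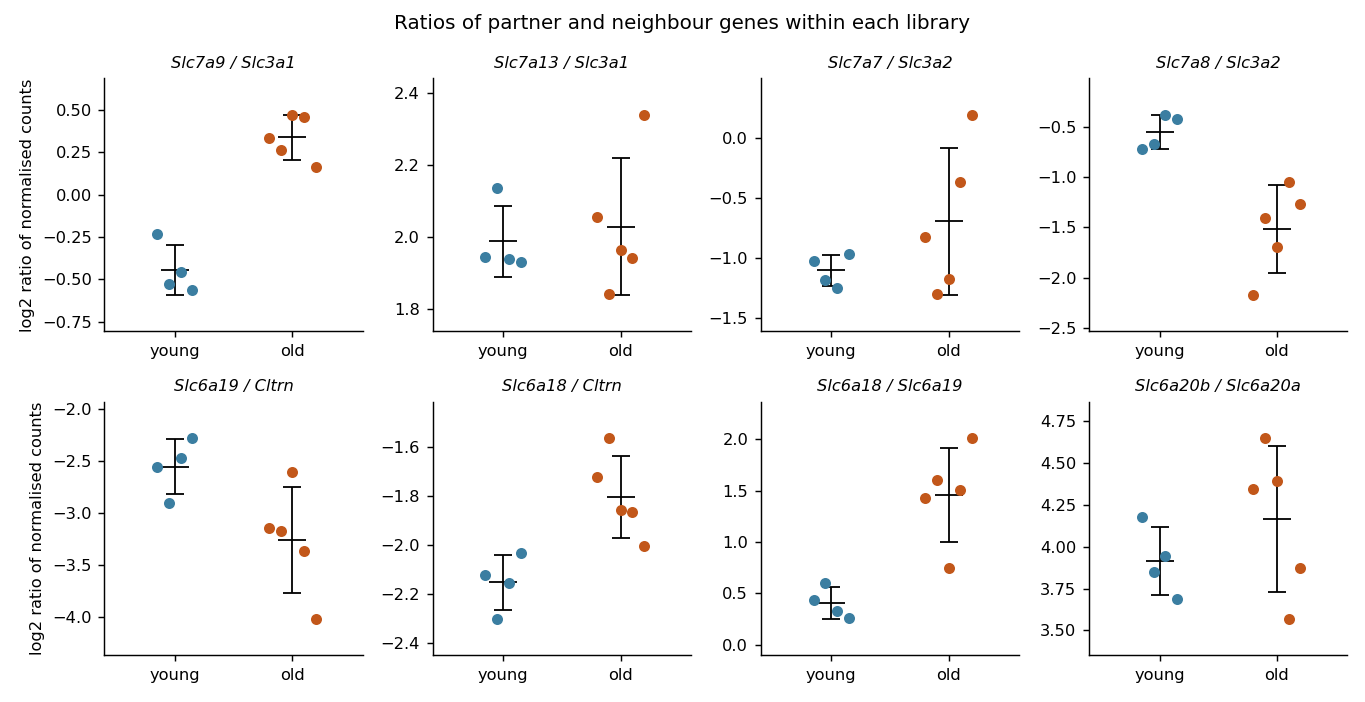
Log2 ratio of the normalised counts of 2 genes within each library (y axis, a scale of its own in each panel, not starting at 0) by age (x axis). Each point is 1 library (young n = 4, old n = 5), and the bars show the mean and SD. The ages are apart for Slc7a9 to Slc3a1, Slc7a8 to Slc3a2, Slc6a18 to Cltrn and Slc6a18 to Slc6a19, and overlap in the other 4 panels.

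Among old kidneys, replicate 2 came nearest to the young level in 5 of the 6 transcripts called lower, all but Slc6a19, and it held that place in 41.1% of all genes called lower. For the 3 called higher, Slc6a18, Slc7a12 and Slc1a1, the nearest was old replicate 3, which held that place in 22.6% of all genes called higher. As a description over the 9 libraries, deviations from the age means correlated at r = 0.88 for Slc6a20b and Slc3a1 and at r = 0.84 for Slc7a9 and Slc3a1. The lowest of the 45 pairs was Slc6a19 and Slc7a13 (r = -0.59), and the median was 0.23. These points share libraries and size factors.

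The same test was read for other amino acid and peptide transporters. Of 38 listed, 31 were in the table and 28 were tested: 4 were called higher, 6 lower and 18 not called, against 29.2% called higher and 30.5% lower of all genes tested. The ages did not overlap for 5 of the 28, against 49.0% of all genes, and their median change was -0.09 on the log2 scale. The largest fall was that of Slc15a2, the high-affinity peptide carrier of the brush border, at 425, 459.6, 579.5 and 494 normalised counts in young and 87.2, 137, 85.2, 98.9 and 75.3 in old libraries. It was 5.07-fold lower with no overlap (log2 fold change -2.35, SE 0.15, adjusted p = 3.51e-10). Slc36a1, a lysosomal and brush border carrier of small amino acids, fell 2.58-fold (log2 fold change -1.42, adjusted p = 1.20e-06), and Slc6a9, a glycine carrier, was at -0.56 (adjusted p = 0.00488). Slc7a14, outside the rule for named genes and named after its values were seen, was at -1.26 (adjusted p = 0.00634).

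The risers were Slc38a6 (log2 fold change 0.98, adjusted p = 5.72e-05), Slc38a7, a lysosomal glutamine carrier (0.86, adjusted p = 0.00707), Slc43a2, a basolateral carrier of large neutral amino acids (0.53, adjusted p = 6.96e-05), and Slc38a10 (0.40, adjusted p = 0.025). The calls of Slc38a10 and of Slc1a5, a neutral amino acid exchanger (log2 fold change -0.44, adjusted p = 0.0232), were each lost under 5 of 23 alternatives, and that of Slc43a2 with a transcript length trend removed (0.18, adjusted p = 0.112). Slc38a10 lost its call without young replicate 2 (adjusted p = 0.118), young replicate 3 (0.11) or old replicate 4 (0.0693), and Slc1a5 without young replicate 2 (0.077) or old replicate 5 (0.0597).

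**Figure D4:**
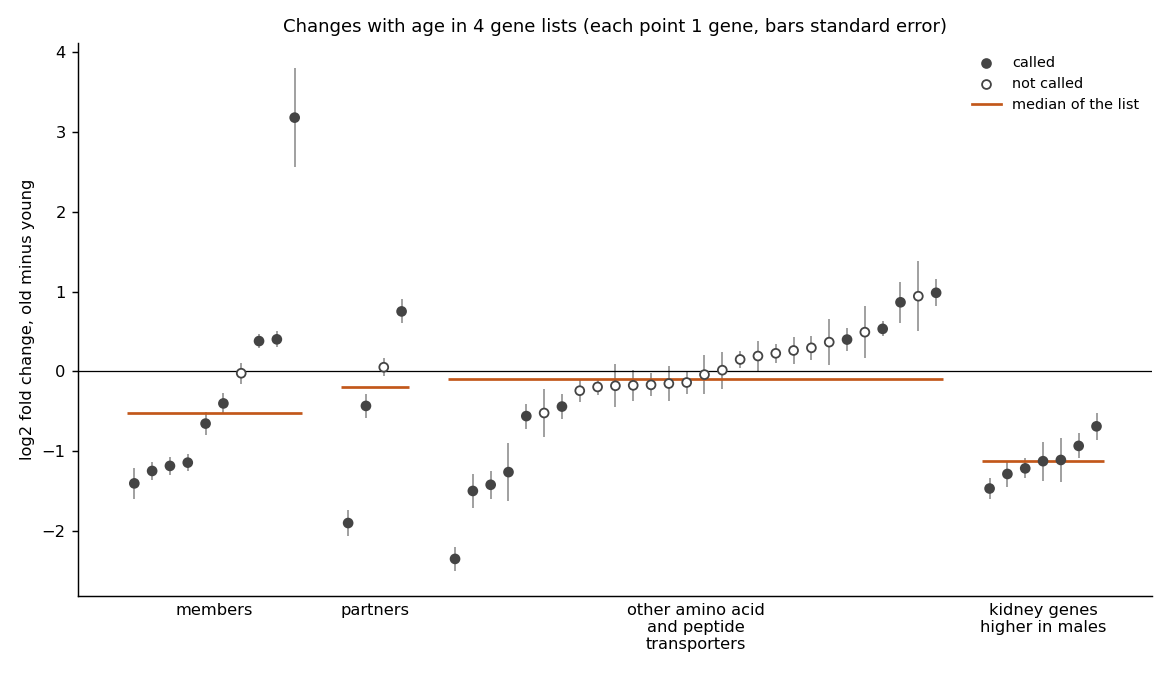
Log2 fold change, old minus young (y axis), of each tested gene in 4 lists (x axis): the 10 transcripts (members), their partners, other amino acid and peptide transporters, and kidney genes known to be higher in males. Each point is 1 gene with its standard error, filled when called and open when not, and the orange line is the median of the list. Medians were -0.53, -0.19, -0.09 and -1.13.

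In mouse kidney, androgens keep a set of proximal tubule genes higher in males, and Slc7a13 and Slc7a12 are themselves known to differ between the sexes, in opposite directions. Of 7 kidney genes known to be higher in males, 7 were called lower in old kidneys, against 30.5% of all genes tested, from -0.69 for Kap to -1.47 for Odc1, the first enzyme of polyamine synthesis, and 5 of them did not overlap between ages, against 49.0% of all genes. Cyp7b1, a steroid hydroxylase, was at 331, 323, 361 and 319.6 normalised counts in young and 147, 176, 139, 82.1 and 157 in old libraries. Its log2 fold change was -1.29, and the rest were at -1.11 for Slco1a1, -1.13 for Acsm3, -1.22 for Nudt19 and -0.93 for Gusb. This list moved with Slc7a13, and its part in the result was not tested.

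Genes known to be higher in females did not move together. Prlr, the prolactin receptor, rose (log2 fold change 1.83, adjusted p = 0.00034), Akr1c18, a progesterone-converting enzyme, fell (adjusted p = 2.61e-09), and Cyp4a14 was at -0.03 (adjusted p = 0.93). Akr1c18 was at 123, 62.2, 206 and 185 normalised counts in young and 0, 1.09, 0, 3.73 and 1.06 in old libraries. The Y-linked transcripts Ddx3y, Eif2s3y, Kdm5d and Uty had reads in all 9 libraries, Ddx3y at 125 to 267 normalised counts. Kdm5d was higher in old kidneys (1.43, adjusted p = 1.64e-05), as were Ddx3y (0.43, adjusted p = 0.0144) and Uty (0.42, adjusted p = 0.0114), and Eif2s3y was at -0.39 (adjusted p = 0.131). Xist was not analysed here.

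Other measures also moved with age. Mitochondrial transcripts took 27.0% to 29.7% of reads in young and 35.8% to 38.1% in old libraries, and leaving them out of the scaling moved the median log2 fold change of all genes by 0.14. Markers of the distal convoluted tubule summed to 2019 to 2722 normalised counts in young and 3977 to 4850.0 in old libraries (2 of 3 called higher, 1 lower). Intercalated cell markers summed to 619.9 to 689 in young and 424 to 535 in old libraries (1 of 4 called higher, 3 lower). Fibroblast markers summed to 1302 to 1611 in young and 698 to 1206 in old libraries (0 of 4 called higher, 3 lower). Endothelial markers (3 of 5 called higher, 0 lower) had young sums of 1205 to 1351 and old sums of 1542 to 1715. For the thick ascending limb (1 of 3 called higher, 0 lower) young sums were 7230.0 to 7884 and old sums 8332 to 11670.0. Sums overlapped between ages for podocyte (3 of 4 called higher, 1 lower), macrophage (2 of 5 higher, 1 lower) and principal cell markers (0 of 3 higher, 1 lower, Scnn1g at -0.94), and for lymphocyte markers, of which the 1 tested was called higher. Adipocyte markers summed to 271 to 1427 in young and 56.0 to 1033 in old libraries (0 of 3 tested called higher, 1 lower), highest in young replicate 2 and old replicate 3, with Adipoq or Plin1 at 0 in 4 of 9 libraries. Without those 2 libraries, 9 of the 10 transcripts were still called. Aqp2, the principal cell water channel, was also highest in old replicate 3 (2267 against 334 to 693 in the other old libraries). The part of these lists in the transporter results was not tested.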

How the data were processed

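Kidney RNA of 9 wild-type mouse libraries (4 young, 5 old) was sequenced as stranded single reads from transcript ends. The authors aligned the reads to GRCm39 with TopHat2 2.0.10, Bowtie 1.0.0 and SAMtools 0.1.19, counted reads per gene by strand with HTSeq 0.6.1 and normalised the counts with DESeq2. The deposited table holds a signal, size-factor scaled counts, with 100% of values in whole steps of 1 read (tolerance 0.001 reads). The table holds 13081 genes with a mean of at least 4.49. Labels and methods name different kit versions.

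limma 3.58.1 (lmFit, eBayes with trend; R 4.3.3) was run on log2(normalised count + 1), old against young, over the 12667 genes that reached 10 normalised counts in 4 or more libraries, with Benjamini-Hochberg adjustment over all of them. Fold changes of low genes on this scale depend on the pseudocount. For Slc7a12 the value of 3.18 was above those of edgeR (2.79) and DESeq2 (2.82). A second fit subtracted the mean log2 level of 15 proximal tubule markers in each library. Ratios of 8 pairs are given without a test. On the whole reads, edgeR 4.0.16 and DESeq2 1.42.0 were run as alternatives. Other pseudocounts, filters and scalings, and leaving out each library were tried too. Scripts were tested on simulated data. Named are the 10 transcripts, their partners except for an item not reported here, and of the other transporters up to 5 called genes per direction with a mean of at least 50, plus the sex-related lists. The transcripts and lists were chosen with earlier results of these data known. Groups follow the age in the labels, and replicate numbers only name libraries. GENCODE vM21 (GRCm38) gave chromosomes, overlaps and shared sequence. The authors used another build, so gene coordinates are left out. Reads lack molecular identifiers, so the floor of 3 reads covers counting error only. Protein sequences were not used here.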

Additional observations from a re-analysis of the deposited data

Results flagged for a closer look

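Values were looked at in 62 groups of 4 or 5 libraries for a single library far from the others (Dixon's test, in which the gap between that library and its neighbour is divided by the group's range). Chance gives about 1 in 20, or 3.1 groups, and 3 were found. Slc6a18 in old replicate 3 had a gap of 0.764 of the range, at a log2 level of 9.88 against 10.25 to 10.36 in the other old libraries. Proximal tubule markers were also lowest in that library (mean log2 level 11.04), and relative to them Slc6a18 was at -1.15 against -1.01 to -0.86. Slc38a6 in young replicate 2 had a gap of 0.893, at 5.84 against 5.59 to 5.61. The ratio of Slc7a13 to Slc3a1 in young replicate 2 had a gap of 0.939, at a log2 ratio of 2.14 against 1.93 to 1.94.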

How the results depend on the processing

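No paired analysis was possible because the library titles carry no replicate numbers that the ages share. The count of genes that differed with age was 7568, and 6756 to 7561 when each library was left out in turn. It was 4101 of 5655 tested when only genes with a mean of 100 or more were kept, which tests fewer genes and gave no value for Slc7a12, Slc38a6 and Slc38a7. The number of the 10 transcripts called stayed at 8 or 9 under all 23 alternatives, with 5 or 6 lower and 2 or 3 higher. Partners and other transporters called numbered 11 to 14 when leaving out libraries and 9 to 16 otherwise. Of the genes known to be higher in males, 7 were called lower with each library left out in turn, and 6 to 7 under the other alternatives. Relative to proximal tubule markers, 8 to 9 transcripts were called with 1 library left out and 7 to 9 otherwise. Of 229 values of the 10 transcripts under alternatives, 219 kept their direction and side of the threshold, 3 lost their call (Slc7a9) and 7 changed sign (Slc7a7). The last were 0.12 with mitochondrial genes left out, 0.0495 without young replicate 4, 0.0053 without old replicate 1, 0.0705 without old replicate 3, 0.0111 without young replicate 2 and old replicate 3, and 0.19 and 0.0632 with a transcript length or a GC trend removed. Leaving out each of the other 6 libraries kept the sign of Slc7a7, with the lowest value at -0.1143. The other named genes gave 274 values, of which 253 stayed on their side. Cltrn changed sign with scaling to the table total (-0.0016), without old replicate 5 (-0.0058) and with a GC trend removed (-0.0191), and was called at 0.38 with a length trend removed (adjusted p = 0.00617, range over alternatives 0.00617 to 0.993). Relative to proximal tubule markers, Slc7a7 changed sign with 4 reference markers (0.0552) and ranged from -0.1178 to 0.0302 over the libraries left out, among them without young replicate 4 (0.0302) and without old replicate 3 (0.0098), and Slc7a9 lost its call with 4 reference markers (adjusted p = 0.0702) and without young replicate 1 (0.079). The cause of these changes was not tested. The removal of young replicate 2 and old replicate 3 together, the 2 trends and all alternatives for pair ratios were added after seeing the data. Of 88 values of pair ratios under alternatives, 87 kept their direction and moved by less than the spread within ages. Even so, the difference in the ratio of Slc7a7 to Slc3a2 ranged from 0.1869 to 0.5604 and that of Slc6a20b to Slc6a20a from 0.1299 to 0.3993 over the libraries left out, and the latter was 0.1039 with a pseudocount of 5. The ratio of Slc7a13 to Slc3a1 was -0.0373 without old replicate 5 (range to 0.0904). Depth limits Slc7a12, with 0 to 11 reads in young libraries, and no other of the 10 transcripts, each with over 100 reads in every library.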

Other observations

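Slc36a2, a proline and glycine carrier, was below the filter on low values and was not tested. It was at 0, 28.2, 0.981 and 1.81 normalised counts in young libraries 1 to 4 and at 16.5, 0, 75, 0 and 0 in old libraries 1 to 5. The adipocyte gene Adipoq was at 0.819, 40.8, 2.94 and 0 in the same young libraries and at 71.9, 8.75, 189, 0.933 and 15.9 in the same old libraries. Both genes were highest in young replicate 2 within the young group and in old replicate 3 within the old group. The values are given as a description, chosen after they were seen.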
